A study of Mus musculus with 4 samples.

Results

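Interferon-induced genes and the interferon receptor chains were examined in splenic CD4+CD25+ T cells of mice lacking Helios. The set was chosen by name, with earlier results of these data known, and held 40 genes. Of these, 38 were in the deposited table of 16383 genes and all 38 were expressed highly enough to be tested. Ifit3 and Igtp were not analysed here. The Ensembl identifiers of both come after those that the table holds.

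Interferons are cytokines that act through paired receptor chains, JAK kinases and STAT transcription factors. Type I interferons bind the receptor encoded by Ifnar1 and Ifnar2 and activate a complex that holds STAT2 and IRF9 and binds the interferon-stimulated response element (ISRE). Interferon gamma binds the receptor encoded by Ifngr1 and Ifngr2 and acts on genes that carry the gamma-activated sequence (GAS). The induced genes encode proteins that bind foreign RNA, tag proteins with ISG15, degrade RNA or attack the vacuoles of intracellular pathogens, and T cells express many of them at a basal level. Regulatory T cells (Tregs) respond to both kinds of interferon.

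RNA-seq of poly(A) RNA was carried out on cells sorted from the spleen at 7 weeks of age, with 2 libraries from wild-type (WT) mice and 2 from Ikzf2-/- mice, called Helios KO. Ikzf2 encodes the zinc finger transcription factor Helios, and CD4 with CD25 marks a population rich in Tregs. The sources used here do not give strain, sex, the exons missing from the null allele or whether each library came from its own mouse, so the spread behind each p-value is that between these libraries and may be technical. Values are normalised reads per kb, with the median transcript length of the gene as divisor. The 11571 genes that reached 10 in 2 or more of the 4 libraries were tested.

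The libraries held 42157138 to 52543073 recovered reads. Foxp3, the lineage factor of Tregs, was at 37578 and 33448 (WT) against 41264 and 25224 (Helios KO), Il2ra (CD25) at 39462 and 39620.3 (WT) against 40457 and 26759 (Helios KO) and Cd4 at 39938 and 38190.5 (WT) against 43526 and 36704 (Helios KO). The sum over 8 of 9 Treg markers, Ikzf2 among them, was 150801 and 149091 (WT) against 167265 and 116259 (Helios KO). Helios KO replicate 1 was thus the highest library and replicate 2 the lowest for Foxp3, Il2ra, Cd4 and the Treg sum. Of the 8 Treg markers, 5 were highest in Helios KO replicate 1, while Itgae, Nrp1 and Ikzf2 were highest in WT replicate 2. Itgae was at 1973 and 2211 (WT) against 1257 and 1290 (Helios KO). Ikzf2 itself was at 5282 and 7864 (WT) against 4396 and 3104 (Helios KO), a log2 fold change of -0.80 (SE 0.28) with an adjusted p of 1.00 in limma. A value over the whole gene does not check an allele whose missing exons are not known. Helios KO replicate 2 stood apart. Summed over 13 of 14 listed macrophage and monocyte markers, the level was 70496 there and 1262 to 3368 in the other libraries. Over 11 of 11 neutrophil and precursor markers it was 38238 against 46.3 to 139, and over 10 of 11 NK and cytotoxic markers 28007 against 4480.3 to 6088. Conventional dendritic cell markers (8 of 8) were at 4912 against 294 to 363, erythroid markers (7 of 10) at 14634 against 169 to 608, and platelet markers (7 of 7) at 2263 against 135 to 193. B cell markers (10 of 10) were at 3261 against 1136 to 2129.9, and plasmacytoid dendritic cell markers (8 of 8) at 4520.3 against 3693 to 4056. Pacsin1 made up much of the plasmacytoid dendritic sum, at 2906 and 2687 (WT) against 2583 and 2479 (Helios KO). Of these 8 genes, 5 were highest in Helios KO replicate 2, among them Siglech, at 137 there and 1.56 to 11.6 elsewhere. Helios KO replicate 1 had the lowest sum of the 4 libraries for macrophage (1262), B cell (1136), NK (4480.3), plasmacytoid dendritic (3693) and platelet (135) markers. WT replicate 2 had the lowest neutrophil sum. Elane, Prtn3 and Ctsg of the neutrophil list were listed at 0 in all libraries but Helios KO replicate 2. Clec9a of the dendritic list was at 0 in Helios KO replicate 1 and WT replicate 1. In bulk samples, fewer cells of a type and less RNA per cell cannot be told apart.

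**Figure D1:**
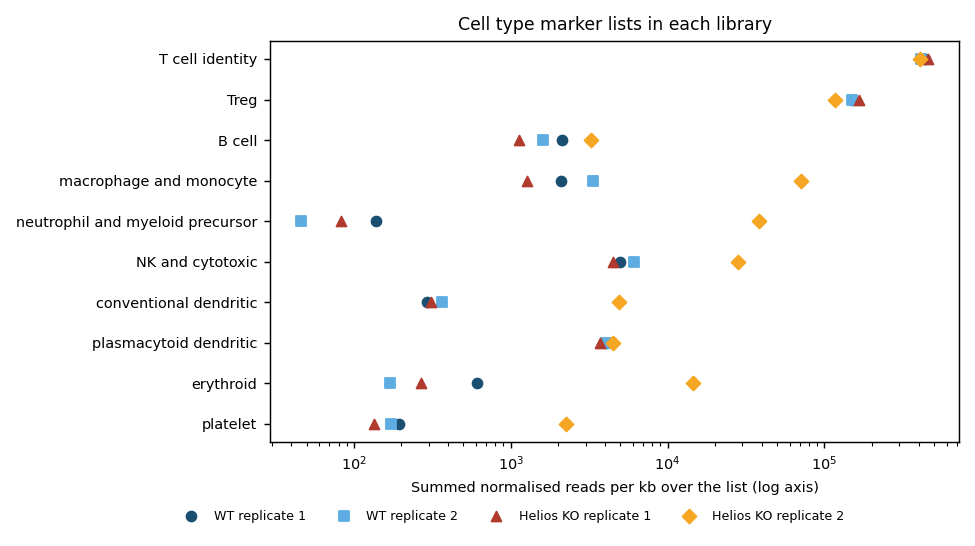
Summed normalised reads per kb over each list of cell type markers (x axis, log scale) in the 4 libraries. The symbols of WT replicates 1 and 2 and Helios KO replicate 1 lie near each other for macrophage markers (1262 to 3368), while Helios KO replicate 2 lies at 70496; the T cell sums of all 4 libraries lie between 405928 and 457515.

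Promoter stretches of 9 members are shown because they hold matches to the ISRE and the GAS, the elements named above, and belong to genes whose values are described below. RefSeq promoter windows of GRCm38.p6, the mm10 assembly, were available for 32 of the 40 genes and ran from 250 bases before to 50 bases after each transcription start. The ISRE was searched on both strands as GAAA, any 2 bases and GAAA again, and the GAS as TTC, any 3 bases and GAA, which reads the same on both strands. An ISRE match was present in 18 of the 32 (56.2%), against 3.99% of the 27025 genes with a window. A GAS match was present in 10 of 32 (31.2%), against 9.55%. The capitals below mark these matches in the 150 bases before the start, read 5′ to 3′ on the strand of the gene, and where 2 motifs overlap the capitals run on.
Ifit1 (chr19:34640739-34640888, plus strand): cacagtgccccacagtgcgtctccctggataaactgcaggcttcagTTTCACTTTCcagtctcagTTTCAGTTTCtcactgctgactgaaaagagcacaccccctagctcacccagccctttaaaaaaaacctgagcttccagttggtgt
Isg15 (chr4:156200819-156200968, minus strand): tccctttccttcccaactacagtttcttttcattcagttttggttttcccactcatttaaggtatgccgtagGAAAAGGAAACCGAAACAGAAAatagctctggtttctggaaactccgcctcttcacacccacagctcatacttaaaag
Oas1a (chr5:120907526-120907675, minus strand): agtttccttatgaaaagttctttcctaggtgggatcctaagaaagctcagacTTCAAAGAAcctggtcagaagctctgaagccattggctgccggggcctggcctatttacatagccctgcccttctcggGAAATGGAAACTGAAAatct
Oas3 (chr5:120777660-120777809, minus strand): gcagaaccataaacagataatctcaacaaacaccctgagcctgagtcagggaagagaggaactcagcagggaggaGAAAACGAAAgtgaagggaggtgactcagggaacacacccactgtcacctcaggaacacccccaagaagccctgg
Gbp2 (chr3:142620513-142620662, plus strand): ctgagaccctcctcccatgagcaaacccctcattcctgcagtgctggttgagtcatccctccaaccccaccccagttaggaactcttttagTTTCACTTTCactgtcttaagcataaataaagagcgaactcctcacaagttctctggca
Gbp3 (chr3:142559894-142560043, plus strand): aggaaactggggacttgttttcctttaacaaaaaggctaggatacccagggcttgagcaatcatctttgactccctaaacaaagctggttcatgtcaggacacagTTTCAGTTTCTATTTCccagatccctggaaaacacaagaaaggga
Irgm1 (chr11:48871421-48871570, minus strand): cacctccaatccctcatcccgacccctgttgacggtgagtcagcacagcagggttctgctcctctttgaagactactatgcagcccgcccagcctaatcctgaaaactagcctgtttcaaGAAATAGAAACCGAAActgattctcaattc
Irf1 (chr11:53769864-53770013, plus strand): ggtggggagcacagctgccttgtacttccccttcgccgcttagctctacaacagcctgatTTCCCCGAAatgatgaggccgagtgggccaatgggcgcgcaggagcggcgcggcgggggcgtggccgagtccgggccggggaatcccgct
Isg20 (chr7:78913274-78913423, plus strand): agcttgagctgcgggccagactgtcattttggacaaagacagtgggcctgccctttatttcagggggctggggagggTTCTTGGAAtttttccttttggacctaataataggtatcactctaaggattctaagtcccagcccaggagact
Ifit1 carried 2 separate ISRE matches, and Isg15 a run of 3 overlapping ones. Gbp2 and Oas3 carried a single match each, and Gbp3 and Irgm1 an overlapping pair close to the start. Irf1 and Isg20 carried a GAS match and no ISRE match in their windows, and Oas1a carried a GAS match and an overlapping pair of ISRE matches. Among the members in the table with a window, an ISRE match was found in 4 of 4 GTPase genes, 2 of 2 sensor genes and Isg15. It was found in 5 of 8 other effectors, 1 of 2 IFIT genes and 2 of 4 OAS genes. The counts were 1 of 5 for transcription factor genes and 0 of 4 for receptor genes. Of members whose knockout values both exceeded both WT values, 8 of 15 had an ISRE match (53.3%). Of those whose values overlapped, 7 of 13 had an ISRE match (53.8%), and of those lower in both, 1 of 2. In the same order, a GAS match was found in 5 of 15, 3 of 13 and 1 of 2. Either motif was found in 12 of 15, 8 of 13 and 2 of 2, against 12.9% of all genes with a window. A match describes letters only, and no match says only that these letters are not in this window.

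**Figure D2:**
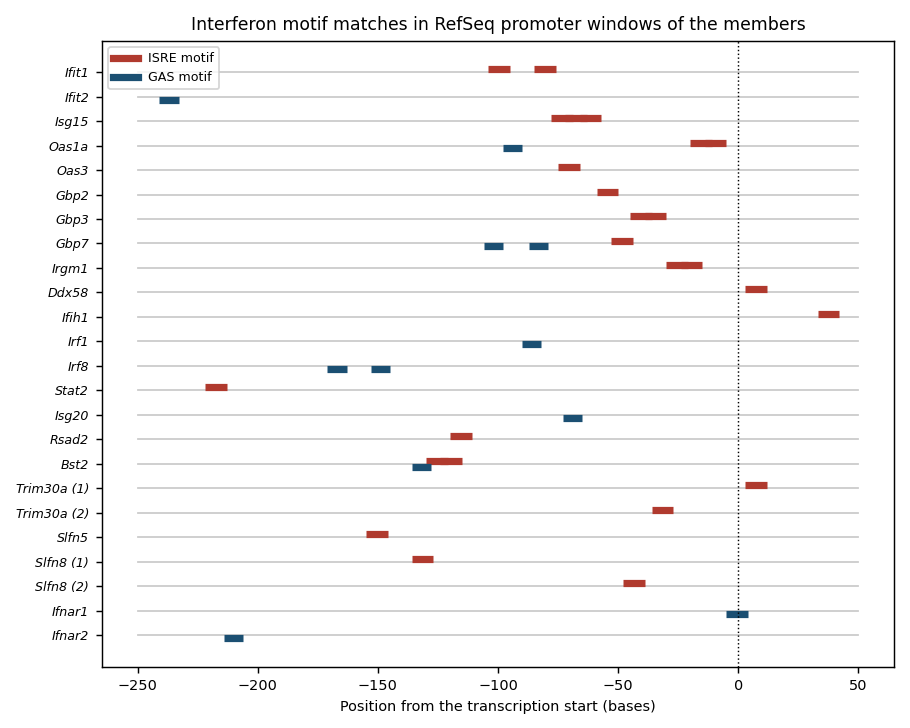
Positions of ISRE matches (red) and GAS matches (blue) in the RefSeq promoter windows of the members in the table that had at least 1 match (y axis, 1 line per window, numbered where a gene has several windows with a match), in bases from the transcription start (x axis). ISRE matches of Gbp2, Gbp3, Gbp7 and Irgm1 all lie within 59 bases before the start, and the GAS match of Irf1 begins at -90.

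Levels in WT cells spanned the range from 95.2 for Ifi44 to 31672 for Irf1, in normalised reads per kb. Irf1, an interferon regulatory factor, stood at 31672 ± 2084 (SD, n = 2). It was followed by the receptor chains Ifngr1 at 30187 ± 2000.2 and Ifnar1 at 14844 ± 467. Stat2 at 12543 ± 180.2, Trim30a at 11981 ± 1681 and Irf7 at 10675 ± 440.5 came next. The WT values of Irf1 and Ifngr1 overlapped, as did those of Trim30a with Stat2 and with Irf7. The lowest were Ifi44 at 109 and 81.0 in WT replicates 1 and 2, Rsad2 at 118 ± 3.72 and Oas2 at 179.9 ± 17.4, all antiviral effectors. The order depended on the length used. In 18 of the 38 genes the longest protein-coding transcript was more than 2 times as long as the median transcript by which the authors divided. With the longest coding transcript in its place, an alternative chosen after seeing the data, Irf1, Ifngr1 and Ifnar1 stayed the highest and Ifi44, Rsad2 and Oas2 the lowest, while Trim30a moved from rank 5 to rank 20 and Stat2 from rank 4 to rank 15.

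**Figure D3:**
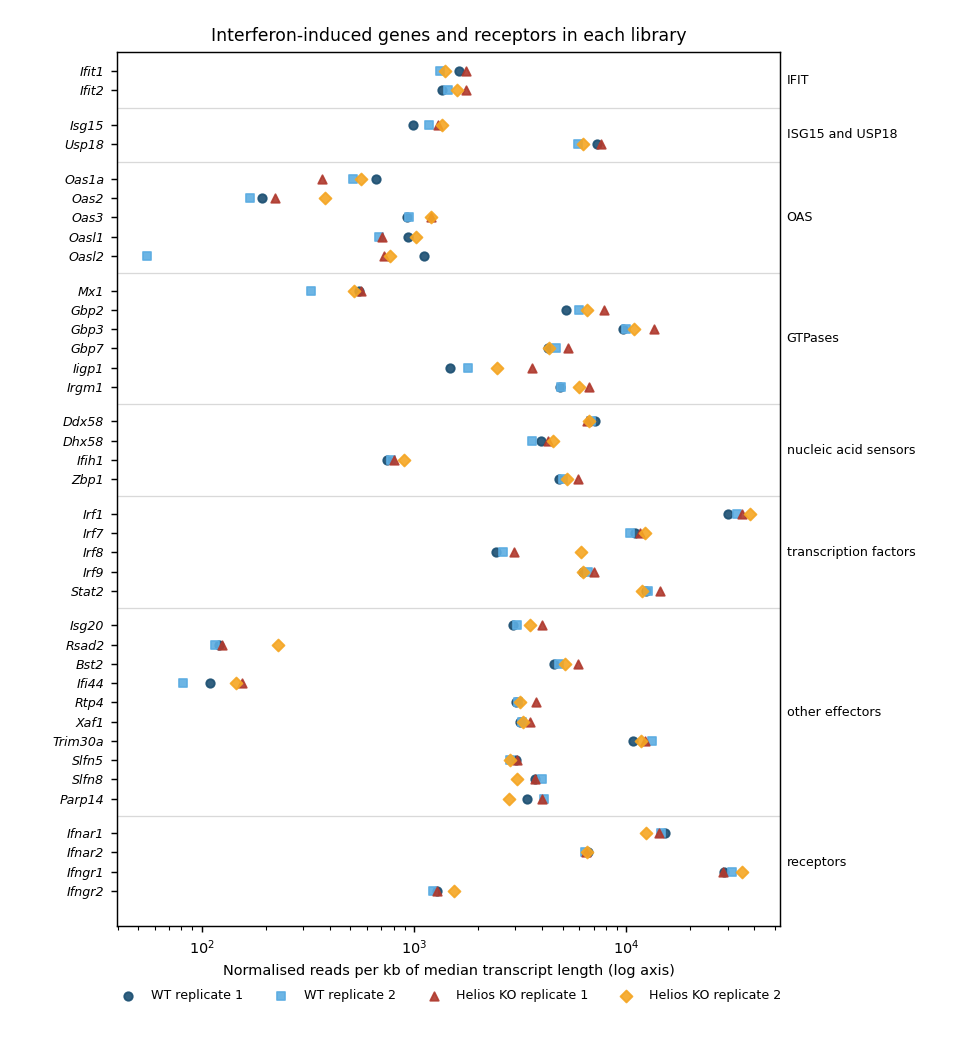
Normalised reads per kb (x axis, log scale) of the 38 members (y axis, grouped by effector class) in the 2 WT and 2 Helios KO libraries, 1 symbol per library. For most members the 4 symbols lie close together, while Oasl2 lies at 55.1 in WT replicate 2 and at 724 to 1109 elsewhere, and Irf8, Rsad2 and Oas2 lie highest in Helios KO replicate 2.

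Between the genotypes no member passed the test. Log2 fold changes, also called log2 differences, are fitted values of knockout minus WT on the log2(value + 1) scale. In limma, 0 of 38 members had an adjusted p under 0.05 (0% of all 11571 tested genes did), and the adjusted p was 1.00 for each of them. At an unadjusted p under 0.05 there were 5 members higher in the knockout and 0 lower, against 1.28% and 2.06% of all tested genes, or 386 of them in all. A limma-voom fit on recovered reads also called 0 genes, with 385 at an unadjusted p under 0.05. Both knockout values lay above both WT values in 20 of the 38 members (52.6%, against 12.5% of all tested genes) and below both in 2 (5.26%, against 15.7%). The log2 fold change was above 0 in 33 of 38 members, against 49.7% of all tested genes. The median log2 fold change was 0.17 over the members and -0.0014 over all tested genes. As the members were chosen with earlier results of these data known, these contrasts describe the set and do not test it. The mean level differed by at least 1.5-fold in Iigp1, Irf8, Oas2 and Ifi44, with the knockout the higher in each. The share of all tested genes that differed by as much was not computed.

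Each knockout library was also set against WT by itself. Helios KO replicate 1 alone lay above both WT libraries in 27 of 38 members, against 26.7% of all tested genes, and below both in 4, against 35.1%. Helios KO replicate 2 alone lay above in 23, against 36.6%, and below in 6, against 34.6%. The median difference from the WT mean was 0.20 in replicate 1 and 0.20 in replicate 2 on the log2(value + 1) scale.

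**Figure D4:**
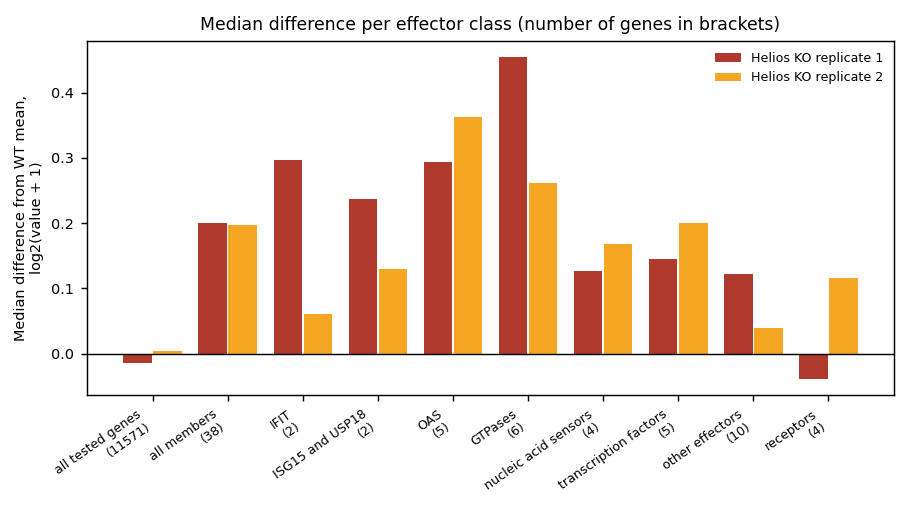
Median difference of each Helios KO library from the WT mean on the log2(value + 1) scale (y axis), for all tested genes, all members and each effector class (x axis, number of genes in brackets). Bars are medians over genes of 1 library and carry no error. The GTPase bars are at 0.45 and 0.26, the OAS bars at 0.29 and 0.36, and the receptor bars at -0.039 and 0.12.

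The interferon receptor genes had log2 fold changes from -0.16 to 0.16, with no direction common to all of them. Ifnar1 and Ifnar2 encode the chains of the type I receptor, and Ifngr1 and Ifngr2 the ligand-binding and signalling chains of the gamma receptor. Ifnar2 was at 6572 and 6388 (WT) against 6427 and 6534 (Helios KO), a log2 fold change of 0.00029 (SE 0.089) with a 95% interval of -0.22 to 0.22. Ifnar1 was at 15175 and 14514 (WT) against 14176 and 12383 (Helios KO), and was 1 of the 2 members that lay lower in both knockout libraries, with a log2 difference of -0.16 (SE 0.11). Its values were close to WT in Helios KO replicate 1 and lower in replicate 2. Ifngr1 was at 28773 and 31601 (WT) against 28388 and 35088 (Helios KO), overlapping between the genotypes, with a log2 difference of 0.066 (SE 0.14). Ifngr2, at a level per kb far below Ifngr1, was at 1284 and 1221 (WT) against 1274 and 1542 (Helios KO) and was highest in Helios KO replicate 2, with a log2 difference of 0.16 (SE 0.13). Ifnar1, Ifnar2 and Ifngr2 are near neighbours on chromosome 16, at 91485238 to 91507441, 91372783 to 91405589 and 91547072 to 91565623 (mm10). Of the 4 receptor genes, 0 lay higher in both knockout libraries, 1 lay lower and 3 overlapped, and the class median log2 fold change was 0.033.

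Among transcription factors, 3 of 5 members exceeded WT in both knockout libraries and 2 overlapped, with a class median log2 fold change of 0.16. Stat2 and Irf9, which encode parts of the type I complex, overlapped. Stat2 was at 12416 and 12670.4 (WT) against 14340.4 and 11872 (Helios KO), with a log2 difference of 0.057 (SE 0.12), and Irf9 at 6273 and 6605 (WT) against 7025 and 6263 (Helios KO), with a log2 difference of 0.043 (SE 0.10). In both genes Helios KO replicate 1 was the highest library and replicate 2 lay below both WT libraries. Irf1 was at 30198 and 33145 (WT) against 34983 and 38181 (Helios KO), all 4 values in order of genotype, its log2 fold change being 0.21 (SE 0.11), with a 95% interval of -0.062 to 0.48. Irf7, the factor that amplifies the type I response, was at 10987 and 10364 (WT) against 11640 and 12259.9 (Helios KO), with a log2 difference of 0.16 (SE 0.095). Irf7 also lay higher in both knockout libraries, by about the same amount in each.

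Irf8 followed another pattern. Irf8 specifies dendritic cells and monocytes and is also expressed in B cells. It was at 2427 and 2623 (WT) against 2955 and 6099 (Helios KO), a log2 fold change of 0.75 (SE 0.41). Helios KO replicate 2 was 2.06 times the next highest library, and replicate 1 lay slightly above WT. Without Helios KO replicate 1, Irf8 had a log2 fold change of 1.27, which rests on the lone knockout library left. With replicate 2 left out in its place it was 0.23. Helios KO replicate 2 also held the highest sums of macrophage (70496), conventional dendritic (4912) and B cell (3261) markers, and their part in the Irf8 value was not tested.

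Of the 4 nucleic acid sensors, 3 lay above WT and 1 below. Ddx58 encodes RIG-I and Ifih1 encodes MDA5, sensors of viral RNA that signal through MAVS, Dhx58 encodes LGP2, their regulator, and Zbp1 binds left-handed nucleic acid and can start cell death. Ddx58 was at 7080.2 and 6814 (WT) against 6545 and 6671 (Helios KO), lower in both knockout libraries by a small amount, with a log2 difference of -0.072 (SE 0.090) and a 95% interval of -0.30 to 0.15. Dhx58 was at 3962 and 3599 (WT) against 4275 and 4506 (Helios KO), with a log2 difference of 0.22 (SE 0.10). Ifih1 was at 742 and 775 (WT) against 799 and 899 (Helios KO), with a log2 difference of 0.16 (SE 0.13), and Zbp1 at 4836 and 5035 (WT) against 5932 and 5253 (Helios KO), with a log2 difference of 0.18 (SE 0.10). These 3 exceeded WT in both knockout libraries and Ddx58 lay lower, with a class median log2 fold change of 0.17. Zbp1 was furthest from WT in Helios KO replicate 1, and Ifih1 and Dhx58 in replicate 2. Exons of Dhx58 overlap an antisense transcript, Dhx58os, whose reads cannot be separated in a preparation that does not mark strand.

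The IFIT genes encode RNA-binding proteins, of which IFIT1 binds viral RNA whose cap lacks host marks. Ifit1 was at 1621 and 1325 (WT) against 1756 and 1394 (Helios KO), with values that overlapped and a log2 fold change of 0.094 (SE 0.17). Ifit2, its neighbour on chromosome 19, was at 1352 and 1442 (WT) against 1758 and 1598 (Helios KO), above WT in both knockout libraries, with a log2 difference of 0.26 (SE 0.11) and an unadjusted p of 0.0598. Both IFIT genes were highest in Helios KO replicate 1. Isg15 encodes the ubiquitin-like modifier of the response and Usp18 the protease that removes it and also dampens type I receptor signalling. Isg15 was at 982 and 1171 (WT) against 1293 and 1346 (Helios KO), higher in both knockout libraries by a similar amount, with a log2 difference of 0.30 (SE 0.13). Usp18 was at 7303 and 5889.7 (WT) against 7565 and 6254 (Helios KO) and overlapped, with a log2 difference of 0.069 (SE 0.15). The WT libraries themselves differed in these genes, WT replicate 1 being the higher for Ifit1 and Usp18 and the lower for Isg15.

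The OAS family, whose active enzymes make the 2-5A messenger that switches on RNase L, held members that differed in direction. Oas3 (ENSMUSG00000032661, chromosome 5, 120753098 to 120777661, mm10) was at 928 and 946 (WT) against 1198 and 1205 (Helios KO), with means of 937 ± 12.3 and 1202 ± 4.44 (SD, n = 2 each). The replicates lay close together within each genotype, and the log2 fold change was 0.36 (SE 0.11) with a 95% interval of 0.085 to 0.63 and an unadjusted p of 0.0193. Oas2, next to it on chromosome 5, was at 192 and 168 (WT) against 220.3 and 379 (Helios KO), with a log2 difference of 0.68 (SE 0.31). Helios KO replicate 2 was 1.72 times the next library in Oas2. The log2 fold change of Oas2 was 1.07 without Helios KO replicate 1 and 0.29 without replicate 2. Macrophage marker sums were 2086 and 3368 (WT) against 1262 and 70496 (Helios KO). Neutrophil, NK, conventional dendritic, erythroid and platelet sums were also highest in Helios KO replicate 2. The part of any of these in Oas2 was not tested.

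Oas1a, a further gene of that cluster, pointed the other way from Oas2 and Oas3. It was at 662 and 516 (WT) against 368 and 564 (Helios KO), with a log2 difference of -0.36 (SE 0.26), and its low value lay in Helios KO replicate 1 alone. Reads of Oas1a may be shared with its near-identical Oas1 paralogs, so its value is uncertain. The OAS-like gene Oasl1, which in mice restrains translation of Irf7, was at 932 and 679 (WT) against 702 and 1022 (Helios KO) and overlapped, with a log2 difference of 0.090 (SE 0.25). Oasl2 had the widest spread of all members. It was at 1109 and 55.1 (WT) against 724 and 767 (Helios KO), so the WT libraries differed 20.1-fold while the knockout libraries were nearly equal. These values rested on 981 and 49 recovered reads (WT) against 523 and 645 (Helios KO). The log2 fold change of 1.58 (SE 1.80) therefore rests on WT replicate 2, and without it the value was -0.57. At least a 2-fold difference between the WT libraries was seen in 1 of 38 members, Oasl2, and in 3.55% of all tested genes. In the OAS class 2 members exceeded WT in both knockout libraries, 0 lay lower and 3 overlapped. Its median log2 fold change was 0.36, or -0.14 without WT replicate 2.

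The interferon-inducible GTPases were the class furthest above WT in Helios KO replicate 1. Guanylate-binding proteins (GBPs) and immunity-related GTPases (IRGs) assemble on the vacuoles of intracellular microbes, and are strongly induced by interferon gamma. Iigp1, an IRG (ENSMUSG00000054072, chromosome 18, 60376027 to 60392634), was at 1473 and 1792 (WT) against 3602 and 2463 (Helios KO), with means of 1632 ± 226 and 3032 ± 805 (SD, n = 2 each). Both knockout libraries lay above both WT libraries, Helios KO replicate 1 furthest, and the log2 fold change was 0.87 (SE 0.22) with an unadjusted p of 0.0118. With Helios KO replicate 2 left out, Iigp1 had a log2 fold change of 1.15, and with replicate 1 left out it was at 0.60. Irgm1, the IRG that regulates the others (ENSMUSG00000046879, chromosome 11, 48861968 to 48871683), was at 4869 and 4916 (WT) against 6671 and 5955 (Helios KO). The WT values of Irgm1 were nearly equal and both knockout values lay above them, with a log2 difference of 0.37 (SE 0.10) and an unadjusted p of 0.0137.

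Gbp2 (ENSMUSG00000028270, chromosome 3, 142620602 to 142638008) was at 5166 and 5954 (WT) against 7873 and 6554 (Helios KO), higher in both knockout libraries, with a log2 difference of 0.37 (SE 0.13) and an unadjusted p of 0.0366. Gbp3, which lies beside Gbp2 on chromosome 3, was at 9639.8 and 9905 (WT) against 13467 and 10857 (Helios KO), also higher in both, with a log2 difference of 0.31 (SE 0.13). Gbp7, the third member of that cluster, was at 4267 and 4662 (WT) against 5279 and 4302 (Helios KO) and overlapped, with a log2 difference of 0.10 (SE 0.13), and there Helios KO replicate 1 alone lay above WT. GBP paralogs are similar in sequence and how shared reads were counted is not stated. Mx1, a dynamin-like GTPase that blocks influenza virus, was at 549.7 and 325 (WT) against 562 and 521 (Helios KO), with a log2 difference of 0.36 (SE 0.27). WT replicate 2 was low in Mx1 and the other libraries lay close together. Of the 6 GTPase genes, 4 exceeded WT in both knockout libraries, 0 lay lower and 2 overlapped, and 3 of the 5 members at an unadjusted p under 0.05 belonged to this class. All 6 lay above both WT libraries in Helios KO replicate 1, the library with the lowest macrophage, B cell, NK and plasmacytoid dendritic marker sums and the highest Treg (167265) and T cell (457515) marker sums, and 4 of 6 did in replicate 2. The part of these differences in the GTPase values was not tested. The class median log2 fold change was 0.36, or 0.45 when Helios KO replicate 2 was left out and 0.26 when replicate 1 was.

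**Figure D5:**
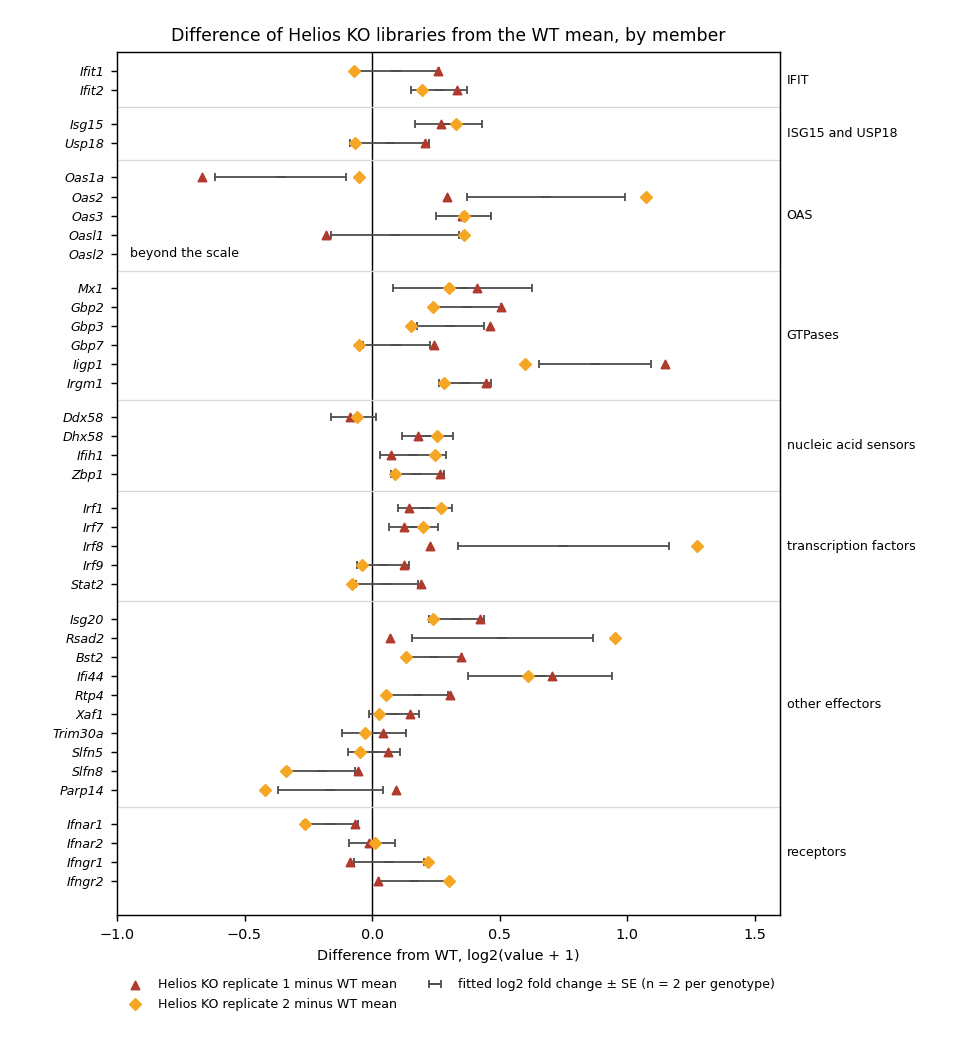
Difference from WT on the log2(value + 1) scale (x axis) of 37 members (y axis, grouped by effector class). Bars show the fitted log2 fold change ± SE (n = 2 per genotype), triangles and diamonds the difference of Helios KO replicates 1 and 2 from the WT mean. Oasl2, at 1.58, lies beyond the scale. The triangles of all 6 GTPase genes lie to the right of 0, that of Iigp1 at 1.15, and the diamonds of Irf8, Oas2 and Rsad2 lie at 1.27, 1.07 and 0.95.

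Of the 10 other effectors, 6 exceeded WT in both knockout libraries, 0 lay lower and 4 overlapped, with a class median log2 fold change of 0.13. Isg20, an exonuclease of single-stranded RNA (ENSMUSG00000039236, chromosome 7, 78913424 to 78920396), was at 2929 and 3049 (WT) against 4004 and 3525 (Helios KO). Both knockout values exceeded both WT values, with a log2 difference of 0.33 (SE 0.11) and an unadjusted p of 0.0251. Bst2, which encodes tetherin and tethers budding virus to the cell, was at 4541 and 4789 (WT) against 5940.1 and 5118 (Helios KO), with a log2 difference of 0.24 (SE 0.11). Ifi44 was at 109 and 81.0 (WT) against 154 and 144 (Helios KO), low in all libraries but higher in both knockout libraries, with a log2 difference of 0.66 (SE 0.28). Rsad2, which encodes viperin and makes a chain-terminating nucleotide, was at 121 and 115 (WT) against 124 and 229 (Helios KO), with a log2 difference of 0.51 (SE 0.35). Only Helios KO replicate 2 stood out in Rsad2, at 1.85 times the next library. Macrophage marker sums were 70496 there and 1262 to 3368 elsewhere, and neutrophil, NK, conventional dendritic, erythroid and platelet sums were also highest there. The part of any of these in Rsad2 was not tested. A value at least 1.5 times that of every other library was seen in Helios KO replicate 2 in 3 of 38 members (Irf8, Oas2 and Rsad2), and in 8.81% of all tested genes.

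Rtp4, a receptor-transporting protein, was at 3014 and 3072 (WT) against 3760.3 and 3159 (Helios KO), and Xaf1, an antagonist of XIAP, at 3138 and 3235 (WT) against 3529 and 3243 (Helios KO). Both lay higher in both knockout libraries, but by little in Helios KO replicate 2, and their log2 fold changes were 0.18 (SE 0.12) and 0.086 (SE 0.10). Trim30a, a tripartite motif protein, was at 10792 and 13169.5 (WT) against 12293 and 11708 (Helios KO), and Slfn5, of the Schlafen family, at 3027 and 2816 (WT) against 3049 and 2826 (Helios KO). Their values overlapped and their log2 fold changes were 0.0091 (SE 0.13) and 0.0079 (SE 0.10), with 95% intervals of -0.31 to 0.33 and -0.25 to 0.26. Slfn8 was at 3693 and 3988 (WT) against 3697 and 3036 (Helios KO) and Parp14, an ADP-ribosyltransferase, at 3415 and 4077 (WT) against 3987 and 2787 (Helios KO). In both genes Helios KO replicate 2 was the lowest library and replicate 1 lay within the WT range, with log2 fold changes of -0.20 (SE 0.13) and -0.16 (SE 0.20). Schlafen and Trim30 genes have close paralogs, so their values are uncertain.

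Pathway genes outside the set were read from 6 further lists. The list of interferons and lambda receptor chains named 13 genes, of which 6 were in the table. The listed interferon alpha and lambda genes were not among these 6. Of the interferon genes themselves, Ifng was tested, and it was at 99.6 and 119 (WT) against 158 and 1196 (Helios KO), with a log2 difference of 1.99 (SE 1.19). Helios KO replicate 2, which also held the highest NK and cytotoxic marker sum (28007 against 4480.3 to 6088), was the high library, and the part of those markers' cells in the Ifng value was not tested. Without that library the log2 fold change was 0.53. Ifnb1, Ifnk and Ifne were listed at 0 in 3 of 4 libraries each and reached at most 4.29. Il10rb, a chain of the lambda interferon receptor also used by interleukin 10, was at 3889 and 3999.6 (WT) against 3540.5 and 3616 (Helios KO), with a log2 difference of -0.14 (SE 0.090).

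Beside the lists that follow, both knockout values exceeded both WT values in 12.5% of all tested genes and lay below both in 15.7%. Of 15 JAK-STAT genes and inhibitors, 4 exceeded WT in both knockout libraries and 2 lay lower, with a median log2 fold change of 0.056. Socs3, a feedback inhibitor of cytokine receptors, was at 22404 and 26871 (WT) against 31546 and 30406 (Helios KO), with a log2 difference of 0.34 (SE 0.12). Its values lay higher in both knockout libraries. Of 17 tested genes that link sensors to interferon induction, 4 lay higher and 1 lower, with a median of 0.019. Tlr7, a sensor of single-stranded RNA, was at 1049 and 993 (WT) against 1229 and 1268 (Helios KO), and its adaptor gene Myd88 at 2862 and 2969 (WT) against 3081 and 3333 (Helios KO), with log2 fold changes of 0.29 (SE 0.11) and 0.14 (SE 0.10).

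Genes of class I presentation and the immunoproteasome had 3 of 10 tested members higher in both knockout libraries and 0 lower, with a median log2 fold change of 0.10. The immunoproteasome subunit genes Psmb10 and Psmb8 were at 11500.1 and 9629 (WT) against 13113 and 11662 (Helios KO) and at 16911 and 14724 (WT) against 18713 and 16224 (Helios KO), with a log2 difference of 0.23 (SE 0.13) and 0.14 (SE 0.12). Of 15 other listed GTPase genes, only 6 were in the table, and all 6 were tested. Among these 6, 2 lay higher and 0 lower, with a median log2 fold change of 0.0045. Gbp8 was at 2946 and 3302 (WT) against 3653 and 3439 (Helios KO), with a log2 difference of 0.18 (SE 0.11), and Atl3, a GTPase that shapes the endoplasmic reticulum, at 1092 and 1397 (WT) against 1165 and 970.4 (Helios KO), with a log2 difference of -0.22 (SE 0.17). The median of these 6 tested GTPase genes was below that of the 6 members (0.36). They are only part of the listed genes, and their lowest WT mean was 13.7, near the limit of 10. The difference between the lists was not tested. Of 60 tested members of a broader list of interferon-induced genes, 9 exceeded WT in both knockout libraries and 6 lay lower, shares near those of all tested genes for the higher ones (12.5%) and below them for the lower ones (15.7%). The median log2 fold change of that list was 0.036. Parp12, an ADP-ribosyltransferase with zinc fingers, was at 605 and 575 (WT) against 763 and 884 (Helios KO), with a log2 difference of 0.48 (SE 0.14), and Lgals3bp, a secreted scavenger protein, at 8611 and 8524 (WT) against 9405 and 13016 (Helios KO), with a log2 difference of 0.37 (SE 0.17). Both lay higher in both knockout libraries, but Lgals3bp was at 0.60 without Helios KO replicate 1 and at 0.13 without replicate 2. Replicate 2 also held the macrophage marker sum of 70496 and the highest neutrophil, NK, conventional dendritic, erythroid and platelet sums. The part of any of these in Lgals3bp was not tested. Of the 110 genes tested in these 6 lists, 0 passed the test over all genes in limma. At an unadjusted p under 0.05, 3 of the 110 were higher (Socs3, Tlr7 and Parp12, or 2.73%) and 0 lower, against 1.28% and 2.06% of all tested genes.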

How the data were processed

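RNA-seq of sorted splenic CD4+CD25+ cells was analysed in 2 WT and 2 Helios KO libraries, grouped by the genotype and title labels. Per the labels' protocols, total RNA (5 ng) was turned into SMART-Seq cDNA over 10 PCR cycles and tagmented libraries with 12 further cycles, a preparation that does not mark strand. Reads were made with bcl2fastq 2.17.1.14 and build mm10 was used, per the submitters' processing notes, while aligner and counter are not given. Per the file headers, the deposited signal is the authors' normalised reads over the median length, in kb, of a gene's transcripts.

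GENCODE M21 (GRCm38) supplied lengths and coordinates for all 16383 genes. Multiplying by length and comparing low genes gave whole read numbers for 97.2% of 58026 nonzero values (tolerance 0.01 read), used for depth and for limma-voom. Replicates differed far beyond sampling noise in these reads (chi-square per degree of freedom 35.5 for WT, 120.4 for the knockout), so none was treated as a copy. A count test had been considered, but the values are not counts, so limma 3.58.1 (R 4.3.3) was fitted to log2(value + 1) over 11571 genes with genotype as the only term, a variance trend, robust moderation and two-sided tests with Benjamini-Hochberg adjustment at 0.05. Fold changes on that scale understate those of low genes. The fit was tested on simulated data.

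The members and gene lists were chosen with earlier results of these data known. The genes named are all members in the table, Ikzf2, and for each pathway list its called genes (failing any, the 2 lowest in p). One gene that this rule names is not reported here. Ifnb1, Ifnk and Ifne were named after their values were seen. Classes and lists are described by counts and medians, with no set test. Promoters are from RefSeq (GRCm38.p6). Usp18, Oas2, Mx1, Iigp1, Dhx58, Zbp1, Rtp4 and Parp14 had no window. Alternatives were a pseudocount of 0.1, no low-value filter, median-ratio scaling, limma-voom, a block for replicate number, each library left out in turn and, added later, another length for levels.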

Additional observations from a re-analysis of the deposited data

How the results depend on the processing

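With a pseudocount of 0.1, no low-value filter, median-ratio scaling or limma-voom on recovered reads, 0 genes were called, 20 members exceeded and 2 stayed below both WT libraries in both knockout libraries and the 8 class medians moved by less than the spread between replicates. Of the 38 member values, 1 turned sign under these settings, that of Ifnar2 under median-ratio scaling (-0.00053). The libraries share replicate numbers, but the labels give them no meaning and there are only 2 pairs, with a correlation of 0.11 over genes between the deviations of same-numbered libraries. With the replicate number as a block, 0 genes and 0 members were called, as without it.

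Leaving out 1 library at a time gave 0 to 758 called genes, with 758 when Helios KO replicate 1 was left out and 40 when replicate 2 was, each time with a lone knockout library. The log2 fold changes of Oas2 and Irf8 were 1.07 and 1.27 without Helios KO replicate 1, and 0.29 and 0.23 without replicate 2. That of Iigp1 was 0.60 without replicate 1 and 1.15 without replicate 2. The number of members higher than WT was 22 to 28 and the number lower 4 to 6, with fewer libraries to exceed. With Helios KO replicate 2 left out they were 27 and 4, against 26.7% and 35.1% of all tested genes. With replicate 1 left out they were 23 and 6, against 36.6% and 34.6%. For a WT library left out, the shares of all tested genes were not computed. Class medians ranged from 0.061 to 0.30 for IFIT, 0.13 to 0.24 for Isg15 and Usp18, -0.14 to 0.36 for OAS, 0.26 to 0.45 for GTPases, 0.13 to 0.17 for nucleic acid sensors, 0.12 to 0.20 for transcription factors, 0.040 to 0.17 for other effectors, -0.039 to 0.12 for receptors. The sign turned in 13 members, whose log2 fold changes ranged from -0.072 to 0.26 for Ifit1, -0.086 to 0.22 for Usp18, -0.18 to 0.36 for Oasl1, -0.57 to 3.73 for Oasl2, -0.022 to 0.73 for Mx1, -0.052 to 0.24 for Gbp7, -0.039 to 0.13 for Irf9, -0.079 to 0.19 for Stat2, -0.13 to 0.15 for Trim30a, -0.047 to 0.063 for Slfn5, -0.42 to 0.10 for Parp14, -0.020 to 0.021 for Ifnar2, -0.087 to 0.22 for Ifngr1. The cause was not tested.

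The 95% interval of the log2 fold change held 0 in 33 of 38 members, and 2 libraries a genotype limit this precision. The lowest member value, Oasl2 in WT replicate 2, rested on 49 recovered reads. Of the protein-coding genes of GENCODE M21, 20.2% have identifiers beyond the end of the table and are not analysed here.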

Other observations

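Of the 38 members, 5 share exon sequence with another annotated gene on the same strand and 7 with one on the opposite strand in GENCODE M21, Irf7 with Phrf1 and Irf9 with Rnf31 among them. Reads in the shared stretches cannot be assigned without the counting rules, which the sources used here do not give.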
